A study of Mus musculus with 8 samples.

Results

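The mitochondrial ribosomal proteins are described here through the 75 genes of the deposited gene table, of 39017 genes in all, whose symbols consist of Mrpl or Mrps, a number and at most a final letter a or b. Of these, 47 carry an Mrpl symbol, for the large subunit of the mitochondrial ribosome, and 28 an Mrps symbol, for the small subunit. Their RNA was measured in germinal center-like B cells grown in culture, called iGBs. Splenic B cells of C57BL6/J mice were plated on 40LB cells, a fibroblast line that expresses CD40L and BAFF, with 1 ng per mL of IL-4, and were elutriated off this feeder layer at day 4. The Prmt5-null group came from Prmt5 F/F Cγ1-cre mice (libraries 10617, 10618, 10770 and 10771) and the control group from Cγ1-cre mice without the floxed allele (libraries CTRL-10650, then CTRL-10370, CTRL-10596 and CTRL-10597), so that all 8 cultures carried the cre and differed in the floxed Prmt5 gene. Cγ1-cre acts in activated B cells, so that Prmt5 is removed during culture and cells that escape deletion can remain. Each library came from an independent biological sample, with 4 per genotype, and the study used mice of both sexes, 2 to 4 months old. Prmt5 is the arginine methyltransferase that makes symmetric dimethylarginine on histones, Sm proteins of the spliceosome and other targets.

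Mitochondrial ribosomes translate the few messages that the mitochondrial genome encodes, all of them for membrane subunits of the respiratory chain and the ATP synthase. The ribosomal RNAs are made inside the organelle, but every one of the ribosomal proteins is encoded in the nucleus, translated in the cytosol and imported. Some of the proteins have relatives in the bacterial ribosome, and others are found only in mitochondria. Activated and germinal center B cells enlarge their mitochondria as they grow and divide.

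Libraries held between 36731721 and 50366174 reads on genes. The targeted gene followed the labels, with 1538 ± 436 normalized counts of Prmt5 in Prmt5-null and 11774 ± 908 in control libraries (SD, n = 4 each). A normalized count is a read count divided by the size factor of its library. The B cell genes Cd79a, Ebf1, Fas and 9 other rows of the same list summed to between 199445 and 238577 normalized counts in Prmt5-null and between 201273 and 222999 in control libraries. The summed level of 19 fibroblast genes ran from 8676 to 15003 in Prmt5-null and from 5923 to 9805 in control libraries. All 17 that were tested had a log2 fold change above 0, with a median of 0.72. At an adjusted p of 0.05 in limma, the test described below, 4 of the 17 rose, where 6.51% of all genes did. Col3a1 rose most (log2 fold change 1.02), followed by Col5a2 (0.88) and Sparc (0.83). DESeq2 called 8, and 9 were higher at an unadjusted p of 0.05 in limma. For 8 T cell genes the sums were 357 to 501 against 715 to 854, most of it Lck, which fell (log2 fold change -0.94), while Cd3e was at 0 in every library. The 8 myeloid genes summed to 40.7 to 122 in Prmt5-null and 31.4 to 122 in control libraries, with S100a8 and S100a9 at 0 throughout. The part of these cells in the results below was not tested. In such bulk libraries, fewer cells of a type and less RNA per cell cannot be told apart.

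The mitochondrial ribosomal proteins were highest in 1 Prmt5-null library, although its family mean did not pass Dixon's test for a value outside its group. Relative to the control mean of each gene, the median of the 75 genes lay at 0.28 on the log2 scale in library 10770, at 0.03 in 10617, at -0.01 in 10771 and at -0.10 in 10618. The control libraries lay at 0.09 (CTRL-10370), 0.02 (CTRL-10650), -0.02 (CTRL-10596) and -0.08 (CTRL-10597). Results are therefore given with and without library 10770 where it matters. Library 10770 also had the highest sum of cytosolic ribosomal protein genes, 4.87% of its counts against 3.24% to 3.98% in the other 7 libraries, and the lowest sum of transcripts from the mitochondrial genome, 0.368% against 0.587% to 0.943%.

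All 75 mitochondrial ribosomal protein genes were expressed. Their mean over the 8 libraries ran from 163 normalized counts for Mrpl23 to 7432 for Mrps7, with a median of 1913, and no library had fewer than 96 reads on any of them. The highest means belonged to Mrps7, Mrpl18 (4451) and Mrpl9 (4046), and the lowest to Mrpl23, Mrps36 (401) and Mrpl14 (559). Mrps7 is a protein of the head of the small subunit, where it contacts the ribosomal RNA. Mrpl18 belongs to the central protuberance of the large subunit. Mrps36, in spite of its symbol, is now known as a subunit of the 2-oxoglutarate dehydrogenase complex and is counted below in neither subunit.

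Divided by exonic length, which was known for 74 of the 75 genes, levels ran from 33.4 normalized counts per kb (Mrpl23) to 3587 (Mrps7), with a median of 736. The length counts every base that lies in an exon of any annotated transcript of the gene. It was 8079 bases for Mrps10 and 8152 for Mrpl48, against 739 for Mrps21. Values per kb, and the order of genes by them, therefore depend on the annotated transcripts as well as on the RNA level. In control libraries Mrpl18 had 3072 to 3350 normalized counts per kb, Mrps7 2887 to 3357 and Mrpl54, a protein near the stalk, 2851 to 3611, so that the order of these genes lay within the spread between control libraries. Mrps21, a small subunit protein (2322 to 2793), and Mrpl12, the stalk protein that recruits translation factors (2381 to 2726), followed, with ranges that overlap each other. At the low end, Mrpl23 had 23.3 to 33.4 per kb in control libraries, well under the 140 to 146 of Mrps10 and the 120 to 141 of Mrpl48, 2 genes whose ranges touch. Mrpl54, Mrps21, Mrpl12, Mrps10 and Mrpl48 were singled out after their values were seen.

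To ask whether the loss of Prmt5 came with a change of this gene family, the genotypes were compared with limma on a log2(normalized count + 1) scale. Adjusted p-values are those of Benjamini and Hochberg over 16250 genes, all that reached a mean of 10, among which were all 75. Of the 75 genes, 6 passed an adjusted p of 0.05, or 8% of them, where 13.8% of all genes tested did. Mrps7, Mrps31 and Mrpl28 rose (6.51% of all genes rose) and Mrpl20, Mrpl17 and Mrpl24 fell (7.33% of all genes fell). None of the 75 also passed a change of 1.5-fold, against 6.48% of all genes tested, and DESeq2 and edgeR on recovered reads likewise gave 0. At an unadjusted p of 0.05 there were 18, 12 higher and 6 lower, beside 29.3% of all genes. Groups did not overlap for 11 genes, 6 higher and 5 lower in Prmt5-null libraries, where 19.8% of all genes did not overlap (9.67% higher and 10.2% lower).

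The median log2 fold change of the 75 genes was 0.05, and that of all genes tested 0.00. Values ran from -0.53 to 0.45, with 49 above and 26 below 0, and the middle 50% of the family spanned 0.23. Over the 10013 genes whose means lay in the same range as the family, the middle 50% spanned 0.32. For 67 of the 75 genes the 95% interval of the log2 fold change lay wholly inside 1.5-fold in both directions, so that for them a change of that size was outside the interval. The other 8 intervals reached it, those of Mrpl20, Mrpl17 and Mrps15 downward and those of Mrps28, Mrps31, Mrpl23, Mrpl28 and Mrps6 upward. The interval reached 0.22 to either side for the median gene and 0.39 for the widest, that of Mrpl23.

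**Figure D1:**
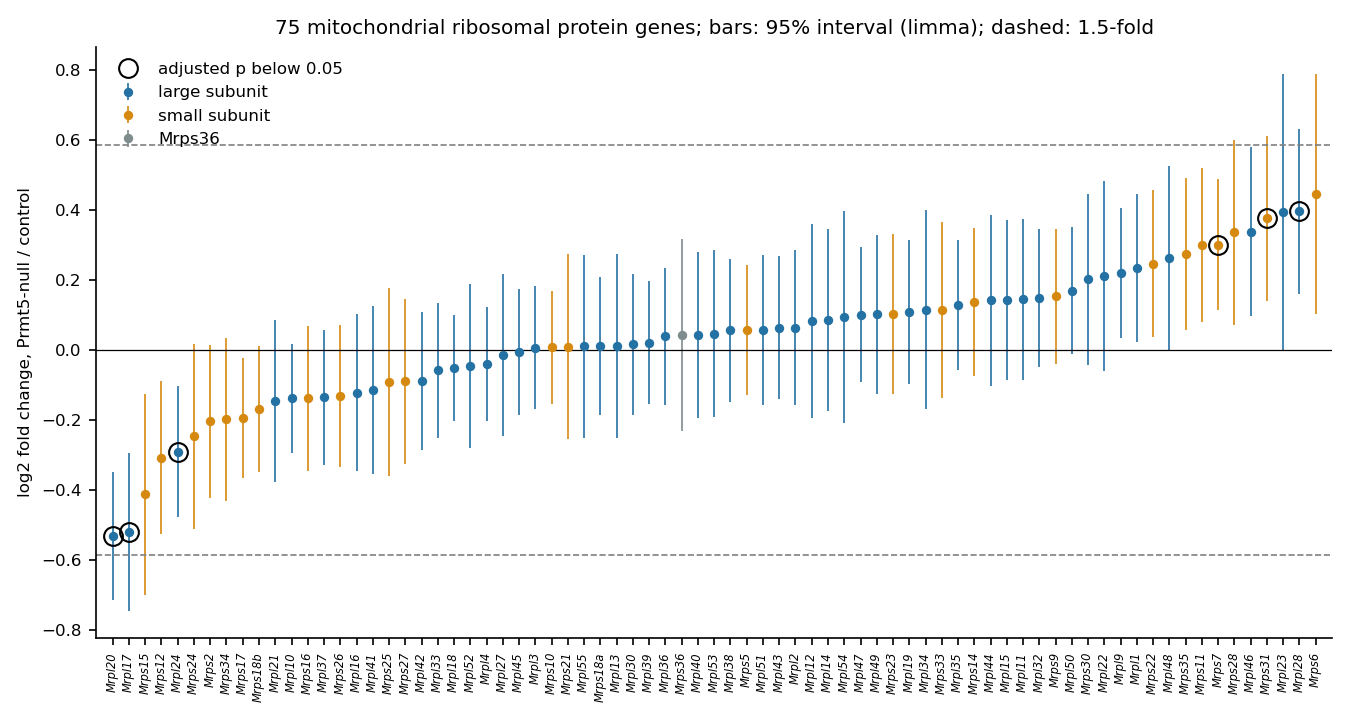
Log2 fold change of Prmt5-null over control iGBs for the 75 mitochondrial ribosomal protein genes, ranked, with 95% intervals from limma; colors give the subunit, circles mark an adjusted p below 0.05 and dashed lines mark 1.5-fold. Points run from -0.53 (Mrpl20) to 0.45 (Mrps6), and none passes a dashed line.

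Mrpl20, at chr4:155802878-155809975 of GRCm38, had the largest fall. It encodes the mitochondrial relative of a bacterial protein that binds the large ribosomal RNA early in assembly. Normalized counts were 2176, 2041, 2352 and 1829 in the Prmt5-null libraries 10617, 10618, 10770 and 10771, and 3083, 3002, 3043 and 2957 in the control libraries CTRL-10650, then CTRL-10370, CTRL-10596 and CTRL-10597. The control libraries lay close together, and the highest Prmt5-null library, 10770, was still far under the lowest of them. The mean was 30.5% lower in Prmt5-null iGBs (2099 ± 221 against 3021 ± 54.2, SD, n = 4), a log2 fold change of -0.53 (SE 0.08, adjusted p = 0.00179 from limma). Without library 10770 it was -0.59, past 1.5-fold, and it was the 1 gene of the family to pass that threshold in any of the fits that left out a library.

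Mrpl17 and Mrpl24 sit with 4 other measured proteins around the exit of the tunnel through which the new chain leaves the large subunit. Mrpl17 lies at chr7:105803206-105811099 and Mrpl24 at chr3:87919506-87923672. Mrpl17 had 1431, 1103, 1482 and 1246 normalized counts in the Prmt5-null libraries and 1980, 1993, 1777 and 1760 in the control libraries, in the order given above. Every Prmt5-null library was under every control library, with 10618 lowest. Its mean was 29.9% lower, a log2 fold change of -0.52 (SE 0.10, adjusted p = 0.00633 from limma). Mrpl24 had 1790, 2058, 1944 and 1882 against 2282, 2501, 2544 and 2081 normalized counts. Here the gap was narrow, since the highest Prmt5-null library, 10618, lay just under the lowest control library, CTRL-10597. The log2 fold change was -0.29 (SE 0.09, adjusted p = 0.0429 from limma). Leaving out any 1 of the Prmt5-null libraries 10617 or 10771 or the control libraries CTRL-10650, CTRL-10370 or CTRL-10596 ended this call, with adjusted p-values of up to 0.122 and log2 fold changes no smaller in size than -0.25.

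The other proteins at the tunnel exit did not pass the test. Their log2 fold changes were 0.39 for Mrpl23 (adjusted p = 0.171), 0.21 for Mrpl22 (0.284), 0.10 for Mrpl47 (0.481) and -0.01 for Mrpl45 (0.978), which anchors the ribosome at the inner membrane. Values at the tunnel exit thus lay on both sides of 0, with 3 of the 6 above it.

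Mrpl28, at chr17:26123500-26126613, had the largest rise among the called genes. It encodes a large subunit protein with a bacterial relative. Normalized counts were 3322, 2718, 4033 and 3136 in Prmt5-null and 2583, 2577, 2466 and 2323 in control libraries. Library 10770 was by far the highest, and 10618 lay only slightly above the control libraries. The mean was 32.8% higher, a log2 fold change of 0.40 (SE 0.11, adjusted p = 0.0310 from limma), and 0.29 without library 10770 (adjusted p = 0.0379 from limma). The call was lost when 10617, 10771 or any 1 control library was left out, with adjusted p-values of up to 0.0825.

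Mrps31 and Mrps7 are proteins of the small subunit, the first found only in mitochondria. They lie at chr8:22411361-22429665 and chr11:115603925-115608036. Mrps31 had 1400, 1268, 1768 and 1364 normalized counts in Prmt5-null and 1065, 1233, 1075 and 1066 in control libraries. In control libraries CTRL-10370 stood above the other three, only a little under the lowest Prmt5-null library. The log2 fold change was 0.38 (SE 0.11, adjusted p = 0.0387 from limma). Mrps7, the gene with the most counts, had 7885, 7467, 9349 and 8141 against 6823, 6857, 6955 and 5982. Groups were again separate, with 10770 highest and the control library CTRL-10597 lowest. Its log2 fold change was 0.30 (SE 0.09, adjusted p = 0.0378 from limma). Without library 10770 neither passed the test, at log2 fold changes of 0.28 for Mrps31 and 0.24 for Mrps7 (adjusted p = 0.0550 and 0.0548 from limma). Mrps31 was also lost without 10617, 10771, CTRL-10650, CTRL-10596 or CTRL-10597, and Mrps7 without 10617, 10771 or any 1 control library, with adjusted p-values of up to 0.0963 and 0.104.

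**Figure D2:**
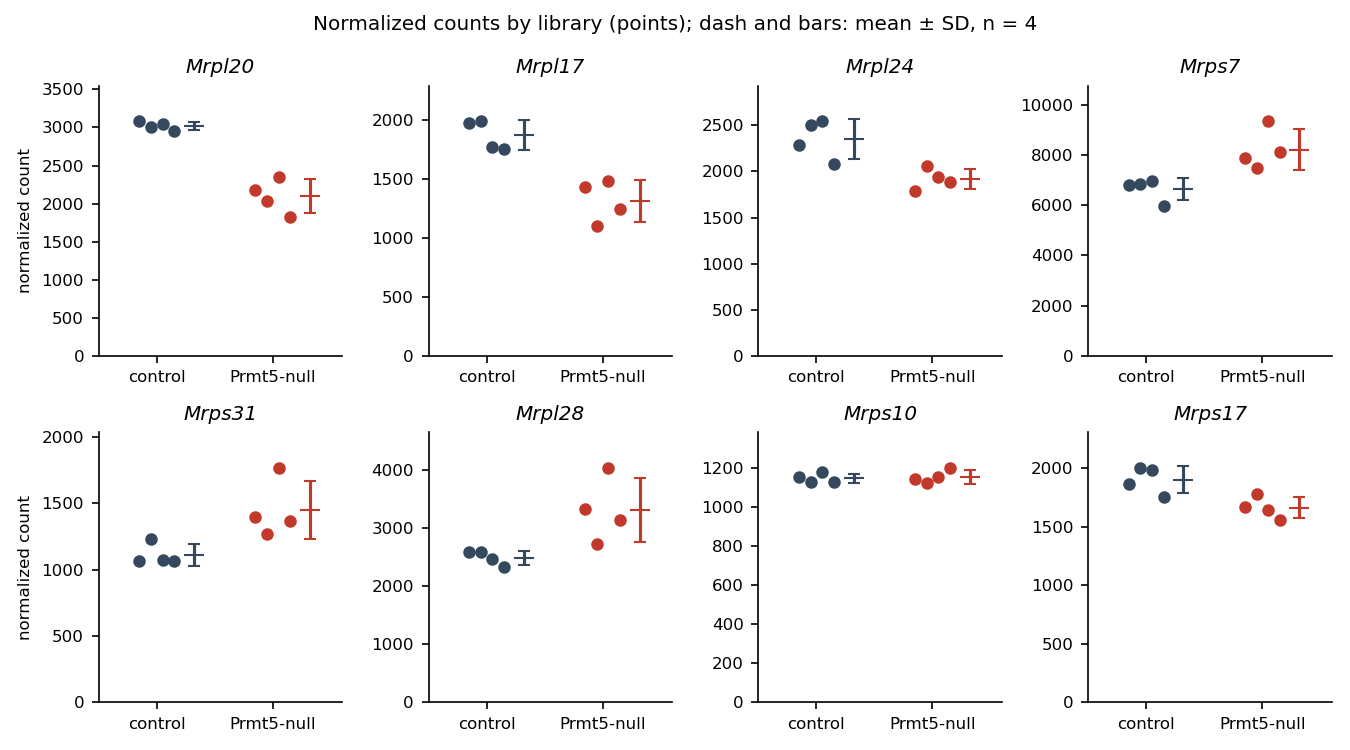
Normalized counts of the 6 genes that passed an adjusted p of 0.05 and of Mrps10 and Mrps17, the 2 genes with deposited splicing events, in each of 4 control and 4 Prmt5-null libraries; the dash and bars beside the points give mean ± SD. Genotypes are separate for the first 6 genes and overlap for Mrps10 (1121 to 1201 against 1130 to 1178) and Mrps17 (1562 to 1779 against 1757 to 2005).

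Further genes had changes of similar size that did not pass the adjusted test. They were chosen after their values were seen. Mrps6, a small subunit protein, had 1008, 812, 1372 and 872 normalized counts in Prmt5-null and 841, 774, 614 and 711 in control libraries, which overlap, with a log2 fold change of 0.45 (adjusted p = 0.0821 from limma). Mrps15, which binds the small ribosomal RNA, had 1695, 1483, 1034 and 1307 against 1979, 1677, 1761 and 1825, with library 10770 lowest, in contrast to most of the family, and a log2 fold change of -0.41 (adjusted p = 0.0584 from limma). Mrps12, a protein of the decoding center, had 907, 763, 1013 and 807 against 1098, 1048, 1120 and 1031, without overlap, and a log2 fold change of -0.31 (adjusted p = 0.0624 from limma). Without library 10770, Mrps12, Mrps24 and Mrps34 fell (log2 fold changes -0.38, -0.38 and -0.29). With them 7 of the 75 genes were called, 6 lower and 1 higher, 4 of them among the 6 given above, where 14.6% of all genes tested were called. Without library 10618, 10 of the 75 were called, 7 higher and 3 lower, where 13.7% of all genes tested were.

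By place in the ribosome, 49 of the 75 genes encode large subunit proteins, since Mrps18a and Mrps30 belong there in spite of their symbols, and 25 encode small subunit proteins. Of all genes tested, 6.51% rose and 7.33% fell. In the large subunit 1 gene rose and 3 fell, with a median log2 fold change of 0.06, and 5 were higher and 3 lower at an unadjusted p of 0.05. In the small subunit limma and edgeR each called 2 that rose and none that fell, DESeq2 called 5 and 2, and 7 and 3 had an unadjusted p below 0.05 in limma, with a median of 0.01. Of 46 proteins with a bacterial relative 2 rose and 3 fell (median 0.03), and of 28 found only in mitochondria 1 rose and none fell (median 0.06), with 4 higher and 0 lower at an unadjusted p of 0.05 in limma and 2 and 0 called by DESeq2. None of the 5 stalk genes passed the test in limma, edgeR or DESeq2, or at an unadjusted p of 0.05, with log2 fold changes from -0.14 (Mrpl10) to 0.14 (Mrpl11). Of the 6 genes of the central protuberance limma and edgeR called none, and DESeq2 called 1, Mrpl46, also the 1 with an unadjusted p below 0.05, with values from -0.05 (Mrpl18) to 0.34 (Mrpl46, adjusted p = 0.0637 from limma). No difference between these groups was tested.

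Across libraries the genes of the family mostly lay high or low together. Of the Prmt5-null libraries, 10770 was the highest for 63 of the 75 genes, where it was the highest for 33.3% of all genes tested, and 10618 was the lowest for 55, where it was the lowest for 29.1% of all genes. Within the controls, CTRL-10370 was the highest for 49 genes (28.3% of all genes) and CTRL-10597 the lowest for 46 (27.3%). The summed level of the family was 156356, 139379, 179634 and 146985 normalized counts in Prmt5-null libraries 10617, 10618, 10770 and 10771, and 151254, 158673, 147573 and 142832 in control libraries CTRL-10650, then CTRL-10370, CTRL-10596 and CTRL-10597. Prmt5-null libraries thus held both the highest and the lowest sum, with the controls between them. The median log2 fold change of the family was 0.05 with all libraries, -0.02 without 10770 and 0.11 without 10618.

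**Figure D3:**
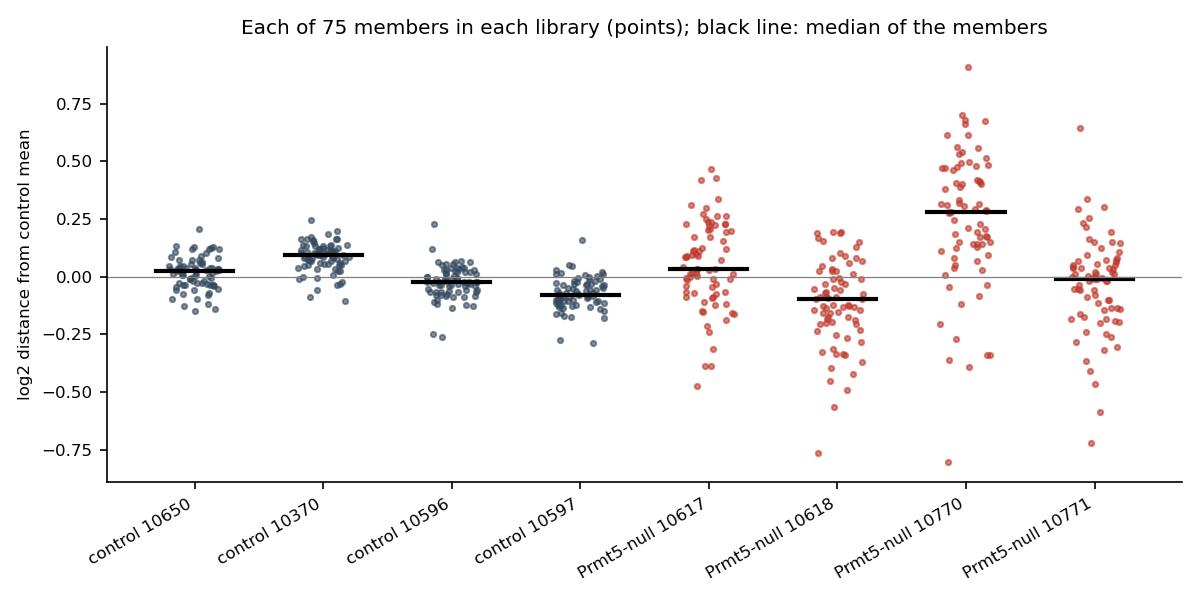
Log2 distance of each of the 75 genes from its mean over the control libraries, in each library (points), with the median of the 75 as a black line. The median is highest in Prmt5-null 10770 (0.28) and lowest in Prmt5-null 10618 (-0.10), and the points of the Prmt5-null libraries are more widely scattered than those of the controls, from whose mean the distances were taken.

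Splicing was read from the deposited rMATS events, which hold for each gene the most significant event of a type and which had been chosen for a difference between genotypes, so that they are described here without a test. Of the 75 genes, 2 had an event, or 2.67%, where 11.4% of the 13300 genes with a mean above 50 did. Both had a retained intron (2.53% of genes), and 1 also an alternative donor site (1.43%). None had a skipped exon (6.86% of genes), mutually exclusive exons (2.63%) or an alternative acceptor site (0.962%). An inclusion level compares only the 2 forms of 1 event. It is the share of the form that keeps the intron or the longer exon, corrected for length. Other transcripts of the gene do not enter it. The deposited lists do not say which value belongs to which library, and so the 4 values are given as the authors' values. Nor do they name the genotypes. The first list was taken as control and the second as Prmt5-null because the study describes introns as more retained in Prmt5-null cells, so that retention by itself is no evidence of its own direction here. The Prmt5 exon at chr14:54513291-54513454 bears on this order directly, with inclusion of 0.989 to 1 in the first list and 0.027 to 0.304 in the second.

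The event of Mrps10 is the retention of an intron of 84 bases, at chr17:47372492-47372575 of GRCm38 on the plus strand. Mrps10 encodes a protein of the head of the small subunit. The intron is shown whole because its first bases decide what a retained copy would encode, with capitals for the first and last 2 bases of the intron.
Mrps10 retained intron: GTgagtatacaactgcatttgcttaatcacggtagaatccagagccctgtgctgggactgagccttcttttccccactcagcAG
It follows 113 coding bases, and its length is a multiple of 3. When it is kept, the reading frame meets a stop codon, TGA, that begins at base 2 of the intron, so that a transcript with the intron would end its reading frame there. The donor, from 3 exon bases to 6 intron bases, is given next, with the GT of the intron in capitals.
Mrps10 donor: gctGTgagt
It matches the consensus CAGGTAAGT in 5 of 9 letters, all of them among the 6 intron bases. Letters were compared with this string alone, and the strength of donors was not scored here or below.

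The inclusion level of this intron was 0.161, 0.235, 0.270 and 0.353 in Prmt5-null libraries and 0.051, 0.072, 0.076 and 0.076 in control libraries. The genotypes did not overlap, and the means of the authors' values were 0.255 and 0.0688, a difference of 18.6 percentage points. It rested on 89 reads for inclusion and 157 for splicing in Prmt5-null libraries and on 27 and 222 in control libraries, with as few as 5 inclusion reads in a control library. Between the forms of this event, the spliced one had the larger share in both genotypes. The level of the gene did not differ beyond its spread, with 1143, 1121, 1151 and 1201 normalized counts in Prmt5-null and 1152, 1130, 1178 and 1130 in control libraries and a log2 fold change of 0.01 (95% interval -0.15 to 0.17, adjusted p = 0.962 from limma).

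Mrps17 encodes a small subunit protein that binds ribosomal RNA. Both of its events concern the first intron, at chr5:129715859-129716726 of GRCm38 on the plus strand, 868 bases long. It ends 17 bases before the first coding base, at 129716744, and so lies in the part of the gene that gives the 5′ untranslated region. One event is the retention of the intron, and the other is listed as a choice between a donor after base 129715858 and one 54 bases downstream, after 129715912. The 3 splice sites are shown because the events differ only in them, with the GT or AG of the intron in capitals.
Mrps17 upstream donor: ttaGTaata
Mrps17 downstream donor: ggtGTttct
Mrps17 acceptor: ttgttttattttAGgtg
The upstream donor matches the consensus CAGGTAAGT in 4 of 9 letters and the downstream donor in 3 of 9.

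The inclusion level of the Mrps17 intron was 0.920, 0.932, 0.863 and 0.896 in Prmt5-null and 0.600, 0.644, 0.733 and 0.637 in control libraries. The means of the authors' values differed by 24.9 percentage points. These levels are not shares of all Mrps17 transcripts. Every Prmt5-null value lay above every control value. From junction reads alone the difference was 14.6 percentage points. The longer form of the donor event, with the 54 bases between the donors, stood at 0.934, 0.925, 0.920 and 0.894 in Prmt5-null and at 0.811, 0.783, 0.799 and 0.754 in control libraries, a difference of 13.1 percentage points and again without overlap. Transcripts that keep the whole intron also hold these 54 bases, so that this level was not shown to be use of the downstream donor. The 2 events share their reads for the intron spliced from the upstream donor, 22 in Prmt5-null and 76 in control libraries (5, 5, 5 and 7 against 18, 22, 18 and 18), and so are not independent. These were the fewer reads in both genotypes, against 1744 and 1184 for retention and 359 and 407 for the longer form of the donor event. Normalized counts of Mrps17 were 1666, 1779, 1647 and 1562 in Prmt5-null and 1865, 2005, 1986 and 1757 in control libraries, which overlap slightly, with a log2 fold change of -0.19 (SE 0.08, adjusted p = 0.124 from limma).

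**Figure D4:**
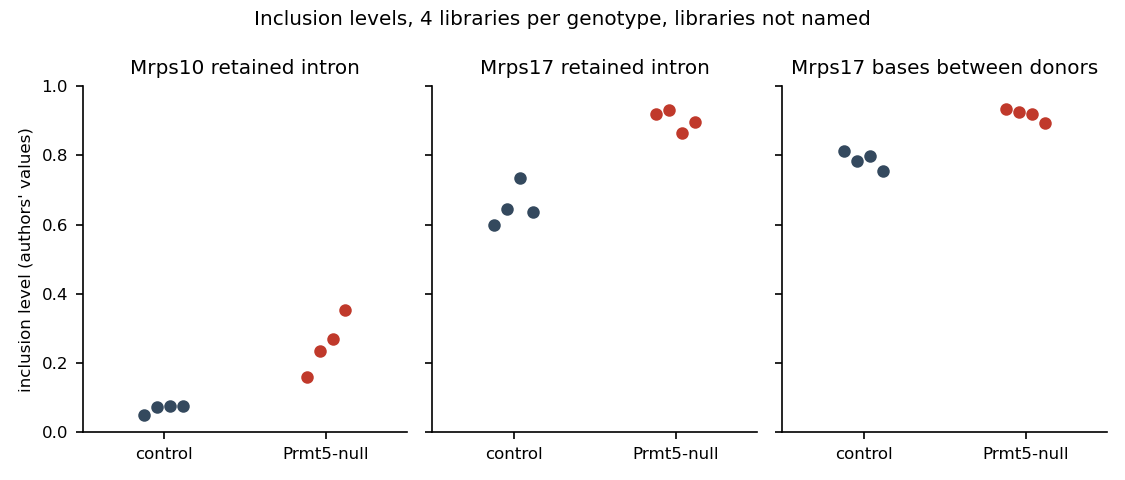
Inclusion levels, from 0 to 1, of the Mrps10 intron, the Mrps17 intron and the 54 bases between the Mrps17 donors, with the authors' 4 values per genotype, which do not name their libraries. Prmt5-null values lie above control values in each panel, from 0.161 to 0.353 against 0.051 to 0.076 for Mrps10.

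The promoters of the family were read from RefSeq on GRCm38.p6, as windows of 300 bases from 250 before to 50 after the annotated start. Of the 75 genes, 66 matched by symbol. Windows were searched on both strands for 3 short motifs by exact match, namely the palindromic consensus of NRF1, CCGGAAG for ETS factors such as GABP, and AAGATGGC for YY1, factors known to act on nuclear genes for mitochondrial proteins. No window of the family held overlapping matches of different motifs. The NRF1 letters were found for 12 genes, or 18.2% of the 66, and for 5.19% of the 27025 genes with a window. The ETS letters were found for 23 genes (34.8% against 9.93%) and the YY1 letters for 12 (18.2% against 3.19%). In all, 40 of the 66 held at least 1 of the 3.

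The window of Mrpl17 is shown because it was the 1 called gene with matches to both NRF1 and ETS motifs, which are in capitals, the ETS match first. It lies at chr7:105811038-105811337 on the minus strand.
Mrpl17 promoter: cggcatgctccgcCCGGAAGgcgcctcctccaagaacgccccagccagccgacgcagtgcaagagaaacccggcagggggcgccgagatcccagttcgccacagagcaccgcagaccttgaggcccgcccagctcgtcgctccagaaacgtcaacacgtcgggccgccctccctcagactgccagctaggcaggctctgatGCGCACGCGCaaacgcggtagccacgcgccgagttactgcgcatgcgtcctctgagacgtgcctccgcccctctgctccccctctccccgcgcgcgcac
Mrps7, the gene with the highest level, held the YY1 letters just after its start, in capitals in the window at chr11:115603890-115604189 on the plus strand.
Mrps7 promoter: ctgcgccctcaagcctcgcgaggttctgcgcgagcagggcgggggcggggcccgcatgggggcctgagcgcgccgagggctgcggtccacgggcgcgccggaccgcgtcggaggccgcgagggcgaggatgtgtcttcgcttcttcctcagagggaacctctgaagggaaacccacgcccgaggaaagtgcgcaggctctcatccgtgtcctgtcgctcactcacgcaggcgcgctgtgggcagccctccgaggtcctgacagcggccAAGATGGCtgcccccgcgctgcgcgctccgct
The windows of the other called genes held none of the 3 motifs.

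Many genes of the family share their start or their exons with a neighbor. The start of a coding gene on the opposite strand lay within 1000 bases for 31, and 38 overlapped another annotated gene, among them Mrpl17 (with Gm15645), Mrpl24 (with Rrnad1) and Mrps7 (with Gga3 and Mif4gd). The strand setting of the counting was not given, so that reads of overlapping genes cannot be told apart. Mrps11 and Mrpl46, proteins of different subunits that were singled out after their values were seen, start 42 bases apart on opposite strands in RefSeq. In the GENCODE annotation they overlap, with Mrpl46 at chr7:78775236-78783531 and Mrps11 at chr7:78783119-78792989, so that the same limit on reads holds for this pair. The window at chr7:78782881-78783180, read on the strand of Mrps11, is given because it holds both RefSeq starts. Whether it acts as a promoter of both genes was not tested. Capitals mark the YY1 letters, here on the opposite strand.
Mrps11 promoter: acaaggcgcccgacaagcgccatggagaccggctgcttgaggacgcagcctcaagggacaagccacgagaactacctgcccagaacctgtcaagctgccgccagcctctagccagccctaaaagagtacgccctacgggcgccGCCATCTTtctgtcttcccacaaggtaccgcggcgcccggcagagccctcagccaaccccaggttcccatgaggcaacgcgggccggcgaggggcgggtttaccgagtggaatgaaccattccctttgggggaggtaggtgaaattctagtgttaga
Mrps11 had 1345, 1250, 1609 and 1214 normalized counts in Prmt5-null and 1144, 1149, 1084 and 1004 in control libraries, and Mrpl46 had 2054, 1936, 2720 and 1971 against 1739, 1854, 1575 and 1642. Neither overlapped between genotypes, and in both library 10770 was the highest. Their log2 fold changes of 0.30 and 0.34 did not pass the adjusted test (adjusted p = 0.0708 and 0.0637 from limma).

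Near-identical copies bear on 3 of the genes, of which unique mapping drops the shared reads. Mrpl23, the lowest of the family, had 185 ± 34.8 normalized counts in Prmt5-null and 141 ± 24.5 in control libraries, while its copy Mrpl23-ps1 had 1939 ± 267 and 2001 ± 242 (SD, n = 4 each). The log2 ratio of the means was 0.40 for Mrpl23 and -0.01 for the sum of both, so that the value of Mrpl23 depends on how reads fell between them. For Mrpl48 and Mrpl48-ps the ratios were 0.28 and 0.32, and for Mrps36 and the sum of its 2 copies 0.03 and -0.08. Levels of these genes are uncertain for this reason.

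The ribosome parts whose symbols fall outside the rule had no call in limma, edgeR or DESeq2, and 1 had an unadjusted p below 0.05. Of 10 such symbols 8 were tested, and their log2 fold changes ran from -0.07 (Ptcd3) to 0.23 (Dap3, adjusted p = 0.153 from limma), with a median of 0.10 and 6 of 8 above 0. These 2 genes were chosen after their values were seen.

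Genes that serve the mitochondrial ribosome without being part of it were taken from 4 lists. Of 31 rows for ribosome assembly factors, 3 rose and 5 fell, or 25.8% where 13.8% of all genes were called, and 5 of the 8 also passed 1.5-fold. Mettl15, which methylates the small ribosomal RNA, fell most (109 ± 26.2 against 228 ± 45.5 normalized counts, log2 fold change -1.06, adjusted p = 0.00545 from limma). Nsun4, an RNA methyltransferase that acts in ribosome assembly, is listed under a pair of identifiers, kept here as separate rows. It fell under both, with log2 fold changes of -0.96 and -0.91. Both rows are counted among the 5 that fell and the 5 past 1.5-fold, so that the 31 rows stand for 30 symbols and 25.8% is a share of rows. Ngrn, which is needed for the large ribosomal RNA, fell by 0.73 on the log2 scale, from 1045 ± 57.2 to 629 ± 47.9 normalized counts. The remaining calls, named after their values were seen, were Mtg1 (-0.41) among those that fell and Rpusd4 (0.67), Ndufab1 (0.33) and Mterfd2 (0.33) among those that rose. Rpusd4 makes pseudouridine in the large ribosomal RNA, and Mterfd2 encodes the partner of Nsun4. The median of the list was -0.02.

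Among 18 translation factors 2 rose and 1 fell, or 16.7% beside 13.8% of all genes, with a median of 0.09. Mtrf1l, a release factor, had 993, 1039, 1043 and 1199 normalized counts in Prmt5-null and 589, 567, 727 and 610 in control libraries. The groups were far apart, with a log2 fold change of 0.78 (SE 0.10, adjusted p = 0.000624 from limma). Mtfmt, which formylates the initiator transfer RNA, rose (0.53), a call lost in 4 of 19 alternatives, among them those without library 10617, CTRL-10650 or CTRL-10370 (adjusted p up to 0.0705 in limma). Guf1, a GTPase that acts on the ribosome, fell (-0.40). Of 21 genes listed for the aminoacyl-tRNA synthetases of mitochondria, limma called 3 that fell and none that rose. The list also holds Gatc and Qrsl1, which encode amidotransferase subunits and not synthetases, and limma called neither. DESeq2 called 4 that fell and 3 that rose, and 4 and 5 had an unadjusted p below 0.05 in limma. Vars2 fell by 0.52, Rars2 by 0.39 and Gars, which also serves the cytosol, by 0.35 on the log2 scale. The calls of Vars2 and Rars2 passed all 19 alternatives. That of Gars was lost in 9, including those without 10617, 10618, 10771, CTRL-10650, CTRL-10370 or CTRL-10597 (adjusted p up to 0.104 in limma). Of 18 genes for mitochondrial transcription and genome upkeep, Polg, the DNA polymerase of the organelle, rose (0.33) and none fell in limma, edgeR or DESeq2 (2 genes lay lower and 2 higher at an unadjusted p of 0.05). The call of Polg was lost in 9 alternatives, including those without the same 6 libraries as for Gars (adjusted p up to 0.106 in limma).

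**Figure D5:**
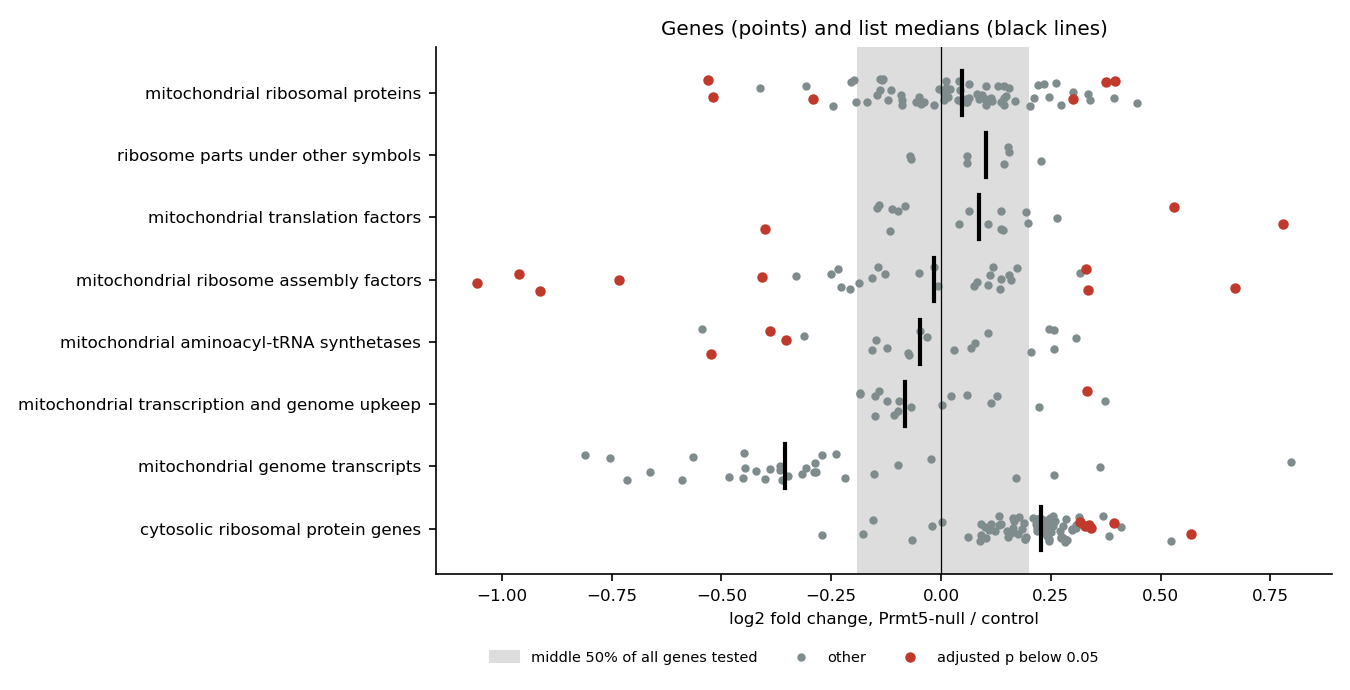
Log2 fold change of Prmt5-null over control iGBs for each gene (points) of 8 lists, with the list median as a black line; red points passed an adjusted p of 0.05, and the grey band holds the middle 50% of all genes tested. The 75 mitochondrial ribosomal proteins center on 0.05, the cytosolic ribosomal proteins on 0.23 and the transcripts of the mitochondrial genome on -0.35.

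The cytosolic ribosome gives a comparison within the same libraries. Of 82 cytosolic ribosomal protein genes tested, 6 rose and none fell in limma (7.32% called, with 31 higher and 1 lower at an unadjusted p of 0.05, and 9 and 0 called by DESeq2), Rps27l most (0.57), followed by Rpl12 (0.39) and Rpl31 (0.34). The call of Rpl12 was lost without library 10771 (adjusted p = 0.0522 in limma) and that of Rpl31 without 10771, CTRL-10650 or CTRL-10596 (up to 0.0718). Their median log2 fold change was 0.23, with 77 of 82 above 0, beside 0.05 and 49 of 75 for the mitochondrial ribosomal proteins. This difference was not tested, and both families were highest in library 10770 among the Prmt5-null libraries. The transcripts of the mitochondrial genome lay on the other side. They include its ribosomal RNAs, a class of RNA that was removed before sequencing. They also include transfer RNAs, some at low counts, such as mt-Ta with means of 14.4 in Prmt5-null and 23.2 in control libraries. Of 32 transcripts of the mitochondrial genome tested, limma, edgeR and DESeq2 called none at an adjusted p of 0.05, 1 lay lower at an unadjusted p of 0.05, and 28 of 32 lay below 0, with a median of -0.35. Their sums were 256169, 393058, 172195 and 331490 normalized counts in Prmt5-null libraries 10617, 10618, 10770 and 10771 and 422786, 298550, 311301 and 398191 in control libraries. The ranges overlap, and the order of the Prmt5-null libraries is the reverse of that of the mitochondrial ribosomal proteins, with 10770 lowest and 10618 highest.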

How the data were processed

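RNA of 8 iGB cultures was sequenced after removal of ribosomal RNA. The authors trimmed reads (Trimmomatic 0.32), aligned them to GRCm38 (STAR 2.3.0e), counted uniquely mapped reads on exons (featureCounts 1.4.4) and deposited them as a normalized signal, each count divided by the DESeq2 1.14.1 size factor of its library. After multiplication by 1 factor per library, 100% of values were whole within 0.01 read. The deposited rMATS tables hold inclusion levels as a fraction from 0 to 1, read counts, and the authors' p-values and differences, which were not used. List 1 was read as control and list 2 as Prmt5-null, from the direction of retention that the study describes and from the Prmt5 exon event.

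Genotypes were compared with limma 3.58.1 in R 4.3.3 (lmFit, eBayes with a trend) with log2(normalized count + 1) as the value, for the 16250 genes that reached a mean of 10, and with Benjamini-Hochberg adjustment. Fold changes are on this scale, which understates low genes. The study's own tool, DESeq2, needs counts, so DESeq2 1.42.0 and edgeR 4.0.16 were run on recovered reads as alternatives. The fit was tested on simulated data. Permutation tests of 4 against 4 libraries are exact and two-sided and give no p below 0.0286. Figures used matplotlib 3.10.9 (pandas 2.3.3, SciPy 1.17.1, NumPy 2.4.6 and Python 3.11.15 were used throughout).

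Positions, exonic lengths and splice sequences are from GENCODE M21 transcripts of GRCm38, and promoters from RefSeq. Members and lists were chosen with earlier results of these data known, and lists and places in the ribosome were written from general knowledge. Genes were named if they had an rMATS event, were among the 10 largest rises or falls at an adjusted p of 0.05, passed 1.5-fold, were among the 3 highest or lowest by mean, fell under the filter, or were among the 3 largest called changes of another list. The 2 experiments of the study are tied to no library by a label, so the experiment was fitted as a block in all 18 placements.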

Additional observations from a re-analysis of the deposited data

Results flagged for a closer look

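In 18 groups of 4 libraries, 1 value stood apart by Dixon's test at the 95% level, for 2 genes. Mrps7 had 5982 normalized counts in control library CTRL-10597, under the other control libraries (ratio 0.865). Mrps31 had 1233 in control library CTRL-10370, above the other control libraries (ratio 0.941). Chance gives such a value in about 1 in 20 groups. Neither the mean of the family over the Prmt5-null libraries nor that over the control libraries passed this ratio (0.544 and 0.441).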

How the results depend on the processing

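No paired analysis was possible because the genotypes share no replicate number and no label pairs their libraries. Of the 75 genes, 6 were called at an adjusted p of 0.05 with a pseudocount of 0.5 or 5, TMM or quantile scaling, edgeR or a minimum mean of 50. The count was 2 without the trend, 12 with DESeq2, 4 with no filter, 2 to 13 over the 18 placements of the experiment block, and 2 to 10 when 1 library was left out. No gene passed 1.5-fold in these settings except when a library was left out (0 to 1, Mrpl20 without 10770). The median log2 fold change of the family ran from -0.02 to 0.11 when a library was left out, and elsewhere stayed between 0.05 and 0.07. Over all genes, 2249 (13.8%) were called, 1785 without the trend, 3075 with DESeq2, 1900 with no filter, 1733 to 3003 over the block placements and 1371 to 2369 when a library was left out. Mrpl20 and Mrpl17 passed in all 19 alternatives, whereas Mrpl24, Mrps31 and Mrpl28 each failed in 8 and Mrps7 in 10. These 19 did not count each of the 18 block placements separately, so the failures are not shares of all fits. Some placements called only 2 genes of the family, 0 higher and 2 lower, and so none of the genes that rose. No alternative turned the direction of these 6 genes. The cause was not tested. With 4 libraries per genotype and the spread given, changes under about 0.22 on the log2 scale lay within the 95% interval of the median gene.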
